A study of Homo sapiens with 18 samples.

Results

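The genes described here are 37 genes of homologous recombination and the Fanconi anaemia pathway, taken by symbol from a list of pathway members. All 37 were found, once each, in the table of each cell line, among the 17561 genes listed in any of the 3 tables and the 14549 listed in all of them. The cells were BL-41, Namalwa and Jiyoye, established Burkitt lymphoma lines, that is, lines from a MYC-driven cancer of B cells, and Namalwa and Jiyoye carry Epstein-Barr virus. In each line, cells were transduced with a lentiviral vector (pRSI12-U6-shUbiC-TagRFP) that expressed a short hairpin RNA, or shRNA, directed at FOXO3, a forkhead transcription factor, or a scrambled shRNA. All 6 groups thus carried the vector and a hairpin, and infected cells of each group were sorted on day 4 for messenger RNA sequencing, in 3 libraries a group and 18 in all. Whether the 3 libraries of a group were grown apart is not in the labels, and the p-values therefore reflect library spread that could be technical.

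Homologous recombination repairs a broken chromosome by copying the sister chromatid. The MRE11-RAD50-NBN complex finds the break, nucleases trim the ends, and BRCA1, PALB2 and BRCA2 act with a group of related helper proteins to prepare the single strand for the search of the sister. The Fanconi proteins detect DNA strands that are linked to each other, attach ubiquitin to FANCD2 and FANCI, and hand the lesion to nucleases and recombination. Germinal centre B cells, from which Burkitt lymphoma arises, divide fast and break their own DNA while they mutate and switch antibody genes. Many of the transcripts named here rise in S phase of the cell cycle.

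Each table gave 1 normalized value per arm, with no value per library, and every fold change is the log2 ratio of the FOXO3 shRNA arm to the scrambled arm. Fold changes and adjusted p-values within a line are the authors' own, and the standard error (SE) of each was computed back from its p. A gene is called, and said to rise or fall, at an adjusted p under 0.05. Summed arm values ran from 17065755 to 18459745, and read totals per library are not given in the sources used here. FOXO3 itself fell in BL-41, from 944.5 to 544.7 in the authors' deposited table (log2 fold change -0.79, adjusted p = 3.15e-07, DESeq2). In Namalwa it fell from 850.5 to 398.4, by the authors' deposited table (-1.09, adjusted p = 2.49e-09, DESeq2). The authors' deposited table of Jiyoye gave 471.2 and 384.0 (-0.30, adjusted p = 0.187, DESeq2), and the knockdown was not called in that line. Each line had 1 FOXO3 shRNA arm, and whether a change followed from lower FOXO3 or otherwise from the hairpin was not tested. All 8 B cell markers were listed in each line, with MS4A1 lowest in Namalwa at 124.0 in the scrambled arm of the authors' deposited table. The 6 myeloid markers had a summed value of 182 with scrambled and 343 with FOXO3 shRNA in BL-41, of 187 and 189 in Namalwa and of 286 and 338 in Jiyoye, from the authors' deposited tables. Among them LYZ, CD14 and CD68 rose in BL-41 and CD14 in Jiyoye by the authors' DESeq2 test. MYC fell in BL-41 from 6674 to 3962 by the authors' deposited table (-0.75, adjusted p = 0.000131, DESeq2) and was called in neither other line. In Jiyoye the keratin gene KRT8 fell from 2978 to 1823 by the authors' deposited table (adjusted p = 0.00108, DESeq2). The T cell markers summed to 133 or less in any arm. Whether these markers play a part in the changes of the repair genes was not tested.

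The repair genes did not move as a block. In BL-41 the authors' DESeq2 test called 3 of the 37 up and 8 down and left 26 uncalled, where 28.7% of all 16001 genes tested were called (14.5% up and 14.2% down). In Jiyoye it called 5 up and 8 down and left 24 uncalled, where 17.4% of 16787 genes were called (8.69% up and 8.70% down). In Namalwa it called 1 up and 1 down, where 6.41% of 15365 genes were called (2.60% up and 3.81% down). Well-expressed genes were called more often: among genes with a mean arm value of at least 100, which includes every repair gene except RAD51B in Namalwa, the share called was 40.7% for BL-41, 9.61% for Namalwa and 25.5% for Jiyoye. Against that background the repair genes' shares of 29.7%, 5.41% and 35.1% lay below it in BL-41 and Namalwa and above it in Jiyoye.

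No repair gene was called with a log2 fold change of 1 or more in size, and the share of all genes called at that size was not counted. By the authors' deposited tables the lowest and highest fold changes of the repair genes were -0.68 and 0.51 in BL-41, -0.49 and 0.41 in Namalwa and -0.92 and 0.84 in Jiyoye. Their medians were -0.19, 0.03 and -0.08, beside medians over all genes tested of 0.020, -0.001 and 0.008. Of the 37 genes, 20 were called in at least 1 line, 14 of them in 1 line, 6 in 2 lines and 0 in all 3. Over the 14549 genes in all tables the shares called in 1, 2 and 3 lines were 27.9%, 9.77% and 3.33%, and over the 8870 whose mean reached 100 in every line they were 33.3%, 13.2% and 5.02%. At an unadjusted p under 0.05, 17 of the 37 passed the authors' DESeq2 test in BL-41, 6 did in Namalwa and 19 did in Jiyoye. That threshold was passed by 36.6%, 17.3% and 27.7% of all genes tested, and by 50.9%, 24.7% and 39.0% of those with a mean of at least 100.

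**Figure D1:**
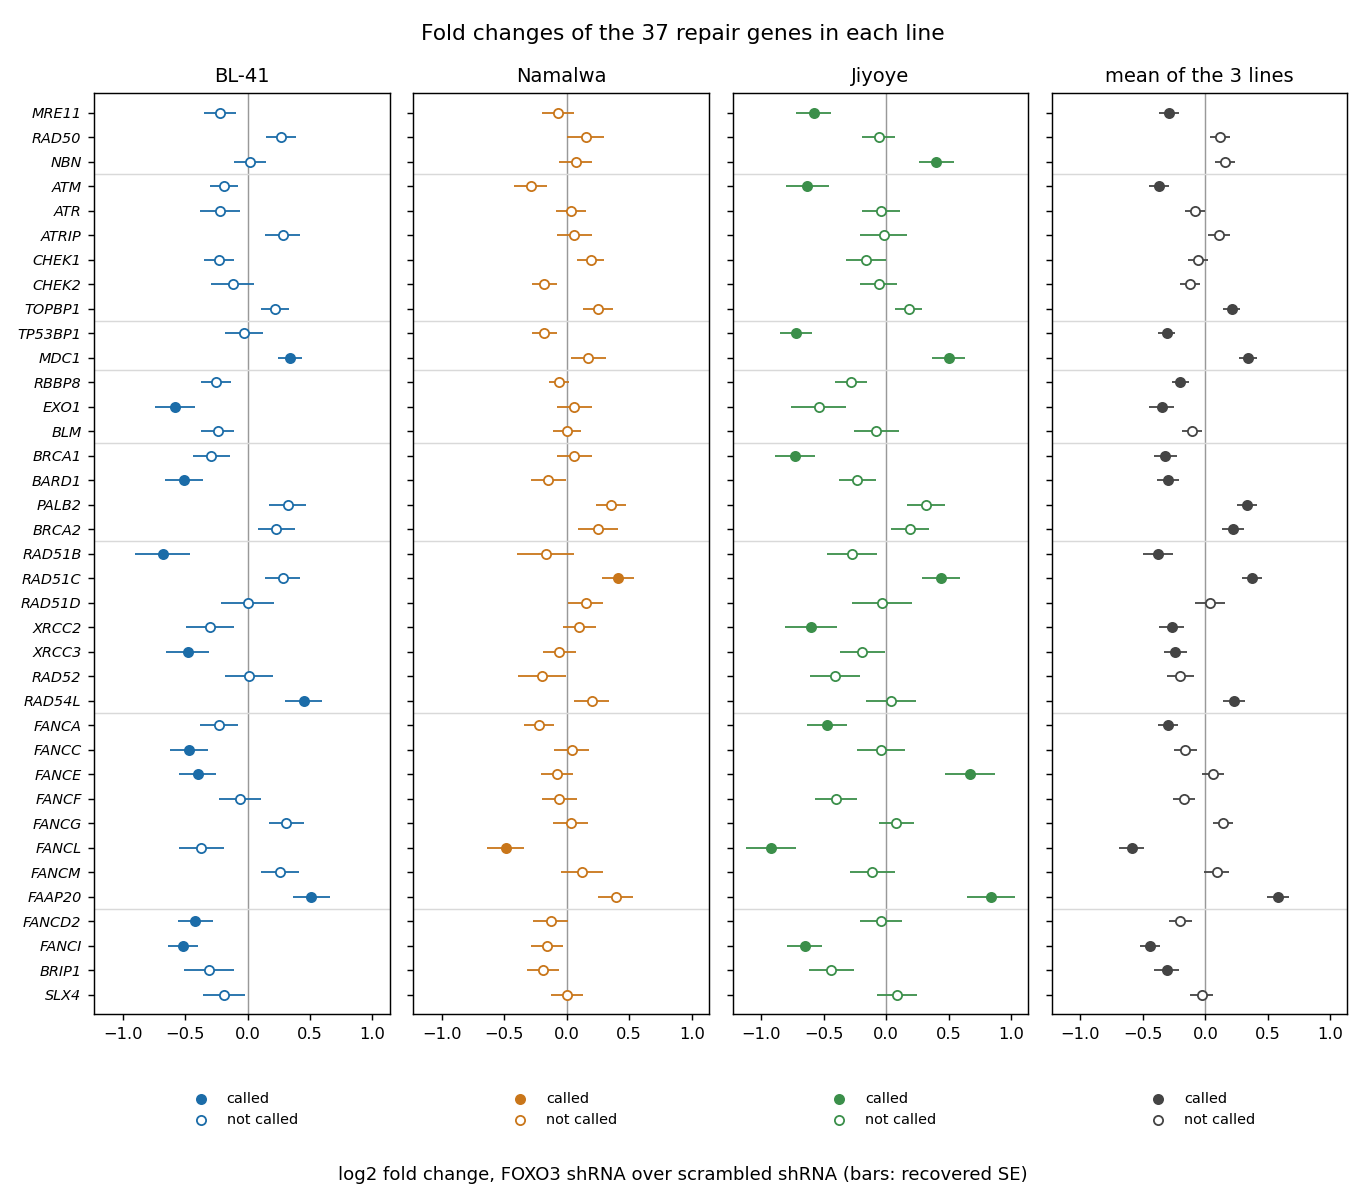
Log2 fold change of FOXO3 shRNA over scrambled shRNA (horizontal axis) for the 37 repair genes, in order of their roles, in BL-41, Namalwa and Jiyoye and for the mean of the 3 lines. Filled points were called at an adjusted p under 0.05 and bars are recovered SE. FAAP20 lies to the right and FANCL to the left in every panel, while FANCE is on opposite sides in BL-41 (-0.40) and Jiyoye (0.67).

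Of the break sensor complex, the nuclease MRE11 fell from 1019 to 682.8 in Jiyoye in the authors' deposited table, a log2 fold change of -0.58 (SE 0.14, adjusted p = 0.000731, DESeq2). It was 841.7 and 721.1 in BL-41 and 1139 and 1087 in Namalwa in the authors' deposited tables, and was called in neither. NBN, the subunit that recruits ATM, moved the other way in Jiyoye, from 697.0 to 920.0 in the authors' deposited table (0.40, SE 0.14, adjusted p = 0.0286, DESeq2). RAD50, the ATPase that joins them, was not called in any line, at 0.27 in BL-41, at 0.15 in Namalwa and at -0.06 in Jiyoye on the log2 scale of the authors' deposited tables. The 3 subunits of this complex thus had fold changes of unlike sign in Jiyoye. MRE11 lies on chromosome 11 from 94415570 to 94512412 (GRCh38.p14, as all coordinates here), where it overlaps the coding gene ANKRD49.

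ATM, the kinase activated by double-strand breaks, fell in Jiyoye from 2006 to 1298 in the authors' deposited table (-0.63, SE 0.17, adjusted p = 0.00206, DESeq2). Its fold changes of -0.19 in BL-41 and -0.29 in Namalwa had the same sign in the authors' deposited tables and were not called. None of ATR, its partner ATRIP and the effector kinases CHEK1 and CHEK2 was called in any line, with fold changes from -0.23 to 0.28 in the authors' deposited tables. For ATR, the kinase of stalled replication forks, the arm values were 1382 and 1183 in BL-41, 1143 and 1165 in Namalwa and 766.2 and 747.5 in Jiyoye in the authors' deposited tables. TOPBP1, the activator of ATR, was likewise not called in a single line, but had positive fold changes of 0.22, 0.25 and 0.18 by the authors' deposited tables.

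MDC1 and TP53BP1 both bind chromatin around a break, MDC1 as the scaffold on phosphorylated H2AX and TP53BP1 as the protein that shields ends from trimming. They moved in opposite directions in Jiyoye. MDC1 rose there from 2629 to 3727 in the authors' deposited table (0.50, SE 0.13, adjusted p = 0.00144, DESeq2) and in BL-41 from 4573 to 5775 (0.34, SE 0.10, adjusted p = 0.00561), and was 3127 and 3528 in Namalwa, not called. TP53BP1 fell in Jiyoye from 1896 to 1149 in the authors' deposited table (-0.72, SE 0.13, adjusted p = 6.32e-07, DESeq2), the smallest adjusted p of any repair gene in any line. It stood at 1353 and 1321 in BL-41 and at 2035 and 1796 in Namalwa in the authors' deposited tables, and neither was called. The fold change of TP53BP1 in Jiyoye differed from that in BL-41 by 0.69 (BL-41 minus Jiyoye, SE 0.20, adjusted p = 0.0153, z test) and from that in Namalwa by 0.54 (Namalwa minus Jiyoye, SE 0.16, adjusted p = 0.036). TP53BP1 lies on chromosome 15 from 43403061 to 43510640 and overlaps TUBGCP4.

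Among EXO1, RBBP8 and BLM, which trim and unwind ends beside MRE11, only EXO1 was called in a line, and only in BL-41. EXO1, a 5′ to 3′ exonuclease, fell there from 845.8 to 564.4 in the authors' deposited table (-0.58, SE 0.16, adjusted p = 0.0017, DESeq2). In Jiyoye it went from 710.3 to 489.3 in the authors' deposited table, and that was not called (-0.54, SE 0.22, adjusted p = 0.0669, DESeq2), although it was when the adjustment took in only genes with a mean of at least 100 (adjusted p = 0.0461). In Namalwa it stood at 1156 and 1205 in the authors' deposited table, and the difference of BL-41 from Namalwa passed its test (-0.64, SE 0.21, adjusted p = 0.0356, z test). RBBP8, which starts the trimming, had fold changes of -0.25, -0.06 and -0.28 in the 3 lines, and the helicase BLM -0.24 in BL-41 and -0.08 in Jiyoye, in the authors' deposited tables.

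The BRCA transcripts had fold changes of unlike sign, of which only those of BRCA1 in Jiyoye and BARD1 in BL-41 were called. BRCA1 and BARD1, which together form a ubiquitin ligase, had negative fold changes in BL-41 and Jiyoye, while PALB2 and BRCA2, which bind each other and act after the ends are trimmed, had positive ones in every line. BRCA1 fell in Jiyoye from 1220 to 734.9 in the authors' deposited table (-0.73, SE 0.16, adjusted p = 7.72e-05, DESeq2), to 0.60 of its level. It was 1817 and 1485 in BL-41 (-0.29) and 1977 and 2057 in Namalwa (0.06) in the authors' deposited tables, called in neither, and Namalwa minus Jiyoye was 0.79 (SE 0.21, adjusted p = 0.0147, z test). BARD1 fell in BL-41 from 732.2 to 513.6 in the authors' deposited table (-0.51, SE 0.15, adjusted p = 0.00487, DESeq2) and was not called in Namalwa (-0.15) or Jiyoye (-0.23). The partners were thus called in different lines, but neither was shown to differ between BL-41 and Jiyoye. BL-41 minus Jiyoye was 0.44 for BRCA1 (adjusted p = 0.233, z test) and -0.28 for BARD1 (adjusted p = 0.557, z test).

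For PALB2, the bridge between BRCA1 and BRCA2, the arm values were 484.8 and 606.4 in BL-41, 550.9 and 699.8 in Namalwa and 489.9 and 611.9 in Jiyoye in the authors' deposited tables. Its fold change was 0.32, 0.35 and 0.32 in that order, and none was called (adjusted p from 0.0752 to 0.128 by the authors' DESeq2 test). BRCA2, the partner of PALB2, had 0.23, 0.25 and 0.19 in the authors' deposited tables, again with no call.

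Among RAD51B, RAD51C, RAD51D, XRCC2 and XRCC3, a family of related helper proteins, RAD51C was the one with a positive fold change in every line. These proteins form the complexes RAD51B-RAD51C-RAD51D-XRCC2 and RAD51C-XRCC3. RAD51C rose in Namalwa from 449.8 to 596.3 (0.41, SE 0.13, adjusted p = 0.0294) and in Jiyoye from 450.1 to 609.7 (0.44, SE 0.15, adjusted p = 0.0262) in the authors' deposited tables (DESeq2). In BL-41 the arm values of the authors' deposited table were 688.4 and 833.8, with a fold change of 0.28 that was not called. RAD51B fell in BL-41 from 132.2 to 82.3 by the authors' deposited table (-0.68, SE 0.22, adjusted p = 0.0103, DESeq2), the lowest fold change of that line's repair genes. XRCC3 fell there too, from 1154 to 827.4 in the authors' deposited table (-0.48, SE 0.17, adjusted p = 0.0203, DESeq2). XRCC2 fell in Jiyoye from 203.7 to 133.9 in the authors' deposited table (-0.60, SE 0.21, adjusted p = 0.0256, DESeq2). RAD51D was not called in any line and had the low levels of 167.3 to 282.9 in the authors' deposited tables.

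RAD54L and RAD52 act beside this family, RAD54L as a motor that helps strand invasion and RAD52 as an annealing protein. RAD54L rose in BL-41 from 511.6 to 697.0 in the authors' deposited table (0.45, SE 0.15, adjusted p = 0.0117, DESeq2) and was 1552 and 1786 in Namalwa and 626.0 and 642.1 in Jiyoye. RAD52 was not called in any line, with its lowest fold change in Jiyoye (-0.41, SE 0.20, adjusted p = 0.155 by DESeq2, from the authors' deposited table).

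The Fanconi core complex held the largest rise and the largest fall of the 37 genes. FAAP20, a ubiquitin-binding subunit that steadies FANCA, rose in BL-41 from 328.3 to 468.1 (0.51, SE 0.15, adjusted p = 0.00486) and in Jiyoye from 407.7 to 731.4 (0.84, SE 0.19, adjusted p = 0.000222) in the authors' deposited tables (DESeq2). Its rise in Jiyoye was 1.79-fold. In Namalwa it went from 452.8 to 592.7 in the authors' deposited table and was just short of a call (0.39, SE 0.14, adjusted p = 0.0716, DESeq2), which became 0.0482 when only genes with a mean of at least 100 entered the adjustment. FANCL, the ubiquitin ligase of the complex, fell in Jiyoye from 265.6 to 140.6 (-0.92, SE 0.20, adjusted p = 0.000131) and in Namalwa from 289.5 to 206.3 (-0.49, SE 0.15, adjusted p = 0.0253) in the authors' deposited tables (DESeq2). In BL-41 its values were 300.1 and 232.4 by the authors' deposited table (-0.37, adjusted p = 0.128, DESeq2). FANCL kept 0.53 of its scrambled level in Jiyoye. Its FOXO3 shRNA value there lay below those of the other lines, while the 3 scrambled values lay close together. The lines were normalized separately, and levels were not tested between them. FAAP20 overlaps PRKCZ and FANCL overlaps VRK2 in the annotation, and whether reads were counted by strand is not given in the sources used here.

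The 250 bases before FAAP20 (chr1:2212721-2212970, minus strand) and 195 bases before FANCL (chr2:58241381-58241575, minus strand), from RefSeq on GRCh38.p14, are printed because these genes had the largest mean rise and fall. Capitals would mark any of 4 motifs searched on both strands, TGTTTAC for FOXO factors, TTTGGCGC or TTTCCCGC for E2F factors, TTTGAA for the cell cycle homology region (CHR) and CCAAT for the CCAAT box, and no stretch of either sequence matched. GC content was 69.2% in the first and 63.6% in the second.
FAAP20: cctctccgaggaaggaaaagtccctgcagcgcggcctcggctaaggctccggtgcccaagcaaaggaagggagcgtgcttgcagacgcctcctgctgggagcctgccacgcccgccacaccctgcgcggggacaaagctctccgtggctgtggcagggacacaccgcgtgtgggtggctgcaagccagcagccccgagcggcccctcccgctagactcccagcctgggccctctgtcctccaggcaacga
FANCL: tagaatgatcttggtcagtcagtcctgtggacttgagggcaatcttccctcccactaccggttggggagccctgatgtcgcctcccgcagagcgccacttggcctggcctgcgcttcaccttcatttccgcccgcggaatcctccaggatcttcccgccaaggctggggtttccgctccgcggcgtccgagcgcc

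FANCE, the subunit that binds FANCD2, was the only repair gene called in opposite directions. It fell in BL-41 from 770.0 to 583.7 (-0.40, SE 0.15, adjusted p = 0.035) and rose in Jiyoye from 249.9 to 397.1 (0.67, SE 0.20, adjusted p = 0.00618) in the authors' deposited tables (DESeq2). Its Namalwa values were 672.4 and 638.1 by the authors' deposited table (-0.08). BL-41 minus Jiyoye was -1.07 (SE 0.25, adjusted p = 0.00132, z test) and Namalwa minus Jiyoye was -0.74 (SE 0.23, adjusted p = 0.0499). FANCE had its lowest scrambled level per length in Jiyoye, 97.4 per kilobase beside 300 in BL-41 and 262 in Namalwa, from tables that were normalized separately. FANCE lies on chromosome 6 from 35452338 to 35467102.

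Other core subunits were called in 1 line or in none. FANCA fell in Jiyoye from 1283 to 929.2 in the authors' deposited table (-0.47, SE 0.16, adjusted p = 0.0256, DESeq2), and FANCC fell in BL-41 from 677.3 to 489.3 in the authors' deposited table (-0.47, SE 0.15, adjusted p = 0.0115, DESeq2). FANCF, FANCG and the translocase FANCM were called in no line, with fold changes from -0.40 to 0.31 in the authors' deposited tables. FANCF had its lowest value in Jiyoye (-0.40, adjusted p = 0.0916) and FANCG its highest in BL-41 (0.31, adjusted p = 0.0708) in the authors' deposited tables (DESeq2).

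FANCD2 and FANCI are the paired proteins to which the core complex attaches ubiquitin. FANCI fell in BL-41 from 4981 to 3470 (-0.52, SE 0.12, adjusted p = 0.000254) and in Jiyoye from 2073 to 1324 (-0.65, SE 0.14, adjusted p = 0.000108) in the authors' deposited tables (DESeq2). In Namalwa it was 4273 and 3827 by the authors' deposited table (-0.16, adjusted p = 0.656, DESeq2). FANCD2 fell in BL-41 from 2465 to 1840 in the authors' deposited table (-0.42, SE 0.14, adjusted p = 0.0104, DESeq2) and stood at 1591 and 1547 in Jiyoye. The pair fell together in BL-41, and FANCI alone was called in Jiyoye. Of the downstream proteins, neither the helicase BRIP1 (-0.31, -0.19 and -0.44 in the 3 lines) nor the nuclease scaffold SLX4 (-0.19 in BL-41 and 0.09 in Jiyoye) was called in the authors' deposited tables. FANCI overlaps POLG, and FANCD2 has 2 listed pseudogenes of its own name that could take reads from it.

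**Figure D2:**
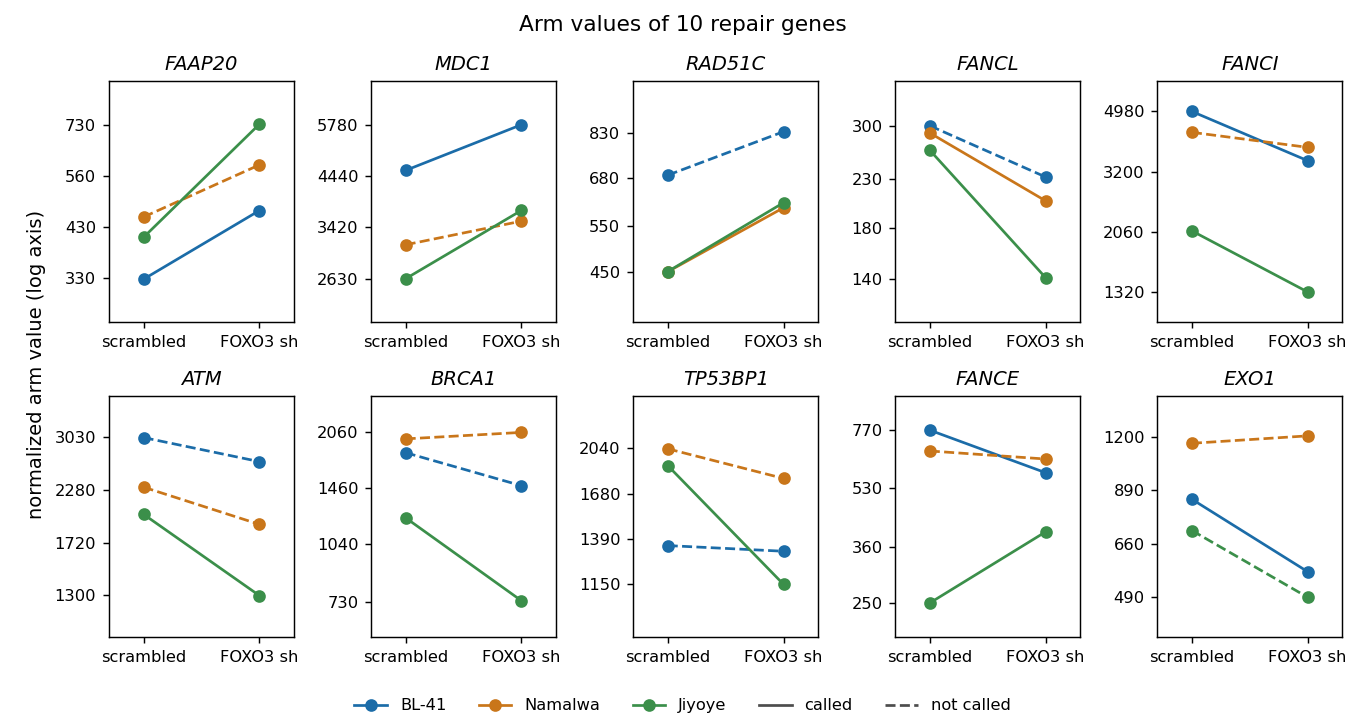
Normalized arm value (log axis) of 10 repair genes with scrambled and with FOXO3 shRNA, 1 line per cell line, solid where the change was called and dashed where it was not. FAAP20, MDC1 and RAD51C slope upward in all 3 lines, FANCL, FANCI and ATM downward, and FANCE falls in BL-41 (770.0 to 583.7) and rises in Jiyoye (249.9 to 397.1).

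The unweighted mean of the 3 fold changes was tested next, as a measure of what these lines shared. It was called for 21 of the 37 genes (56.8%), 7 up and 14 down by the z test, where 37.2% of 14549 genes were called. That share was, among the 8870 genes whose mean reached 100 in every line, 49.0%, 25.6% up and 23.4% down, beside 18.9% of the repair genes called up and 37.8% called down. The largest mean rises were FAAP20 (0.58, SE 0.09, adjusted p = 1.20e-08, z test), RAD51C (0.37, SE 0.08, adjusted p = 3.31e-05), MDC1 (0.34, SE 0.07, adjusted p = 2.13e-05) and PALB2 (0.33, SE 0.08, adjusted p = 0.000294). Each of those was positive in 3 of 3 lines. TOPBP1 (0.21, adjusted p = 0.00466), RAD54L (0.23, adjusted p = 0.0443) and BRCA2 (0.22, adjusted p = 0.0317) rose as well on the mean of the lines (z test). The calls of RAD54L (0.20, adjusted p = 0.0885) and BRCA2 (0.19, adjusted p = 0.0703) were lost by the z test once the arms were scaled to equal totals.

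The largest mean falls were FANCL (-0.59, SE 0.10, adjusted p = 1.89e-07, z test), FANCI (-0.44, SE 0.08, adjusted p = 9.86e-08), RAD51B (-0.38, SE 0.12, adjusted p = 0.00919) and ATM (-0.37, SE 0.08, adjusted p = 2.18e-05). Those 4 were negative in 3 of 3 lines. The others called down were MRE11, TP53BP1, RBBP8, EXO1, BRCA1, BARD1, XRCC2, XRCC3, FANCA and BRIP1, with means from -0.35 to -0.20. Of the 21 calls, 8 remained without each line in turn, those of ATM, TOPBP1, MDC1, PALB2, RAD51C, FANCL, FAAP20 and FANCI. A mean of 2 lines usually has a larger SE, so a lost call alone does not show that a mean rested on 1 line. BRCA2, at 0.23, 0.25 and 0.19 in BL-41, Namalwa and Jiyoye, lost its call whichever line was left out. Without Jiyoye 8 calls were lost, among them TP53BP1 (-0.11, adjusted p = 0.419, z test) and BRCA1 (-0.12, adjusted p = 0.437). Without BL-41 8 were lost, among them EXO1 (-0.24, adjusted p = 0.181) and BARD1 (-0.19, adjusted p = 0.176), and without Namalwa 2 (BRCA2 and RAD54L).

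The sign of the fold change was the same in the 3 lines for 24 of the 37 genes (64.9%), 9 positive and 15 negative, beside 50.2% of all genes and 57.1% of those whose mean reached 100 in every line. A test of whether the 3 fold changes differed at all was called for 4 repair genes (10.8%), where 11.3% of 14549 genes were called, and 14.4% of those whose mean reached 100 in every line. The 4 were FANCE (adjusted p = 0.00261, chi-square test), TP53BP1 (adjusted p = 0.00865), BRCA1 (adjusted p = 0.0159) and EXO1 (adjusted p = 0.0357). BL-41 minus Namalwa was called for 1 repair gene, on the lower side, where 7.01% of all genes were called (4.01% higher and 3.00% lower). BL-41 minus Jiyoye was called for 2, 1 on each side, where the share was 6.25% (3.01% and 3.24%). Namalwa minus Jiyoye was called for 3, 2 higher and 1 lower, where it was 2.75% (1.08% and 1.66%). With the stricter Benjamini-Yekutieli adjustment only the FANCE difference between BL-41 and Jiyoye stayed called. For most genes a call in one line and none in another was therefore not shown to be a difference. FAAP20, called in Jiyoye and not in Namalwa, is an example, with Namalwa minus Jiyoye at -0.45 (95% interval -0.92 to 0.01, adjusted p = 0.397, z test). FANCL, called in Jiyoye and not in BL-41, is another, with BL-41 minus Jiyoye at 0.55 (0.01 to 1.09, adjusted p = 0.252, z test).

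**Figure D3:**
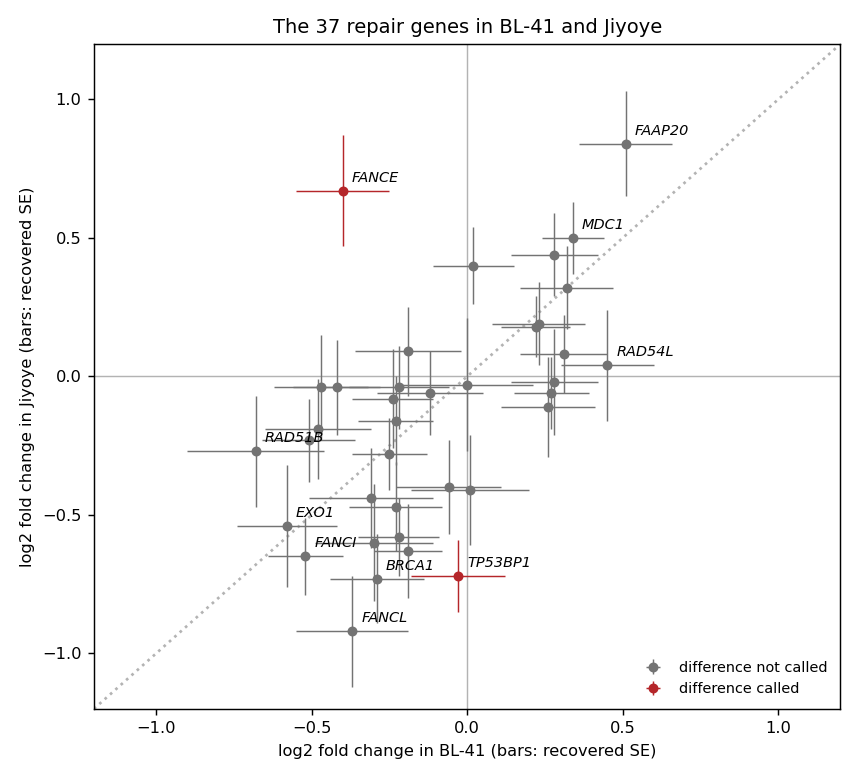
Log2 fold change in BL-41 (horizontal axis) against Jiyoye (vertical axis) for the 37 repair genes, with bars of 1 recovered SE and a dotted line of equal values. Red points mark FANCE and TP53BP1, whose difference between these lines was called (-1.07 and 0.69).

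The levels themselves were compared per kilobase of gene length, within a line. FANCI was the most abundant repair transcript in BL-41, at 1053 per kilobase with scrambled shRNA, and in Namalwa, at 900, and TOPBP1 in Jiyoye, at 604. FANCM was the lowest in each line, at 47.1, 27.6 and 41.8 per kilobase. The median over the 37 genes was 172 per kilobase for BL-41, 279 for Namalwa and 159 for Jiyoye, beside 98.6, 111 and 90.2 over all genes. In Jiyoye the value of FAAP20 per kilobase exceeded that of every other repair gene with FOXO3 shRNA. Without values per library, neighbours in this order could not be tested against each other.

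**Figure D4:**
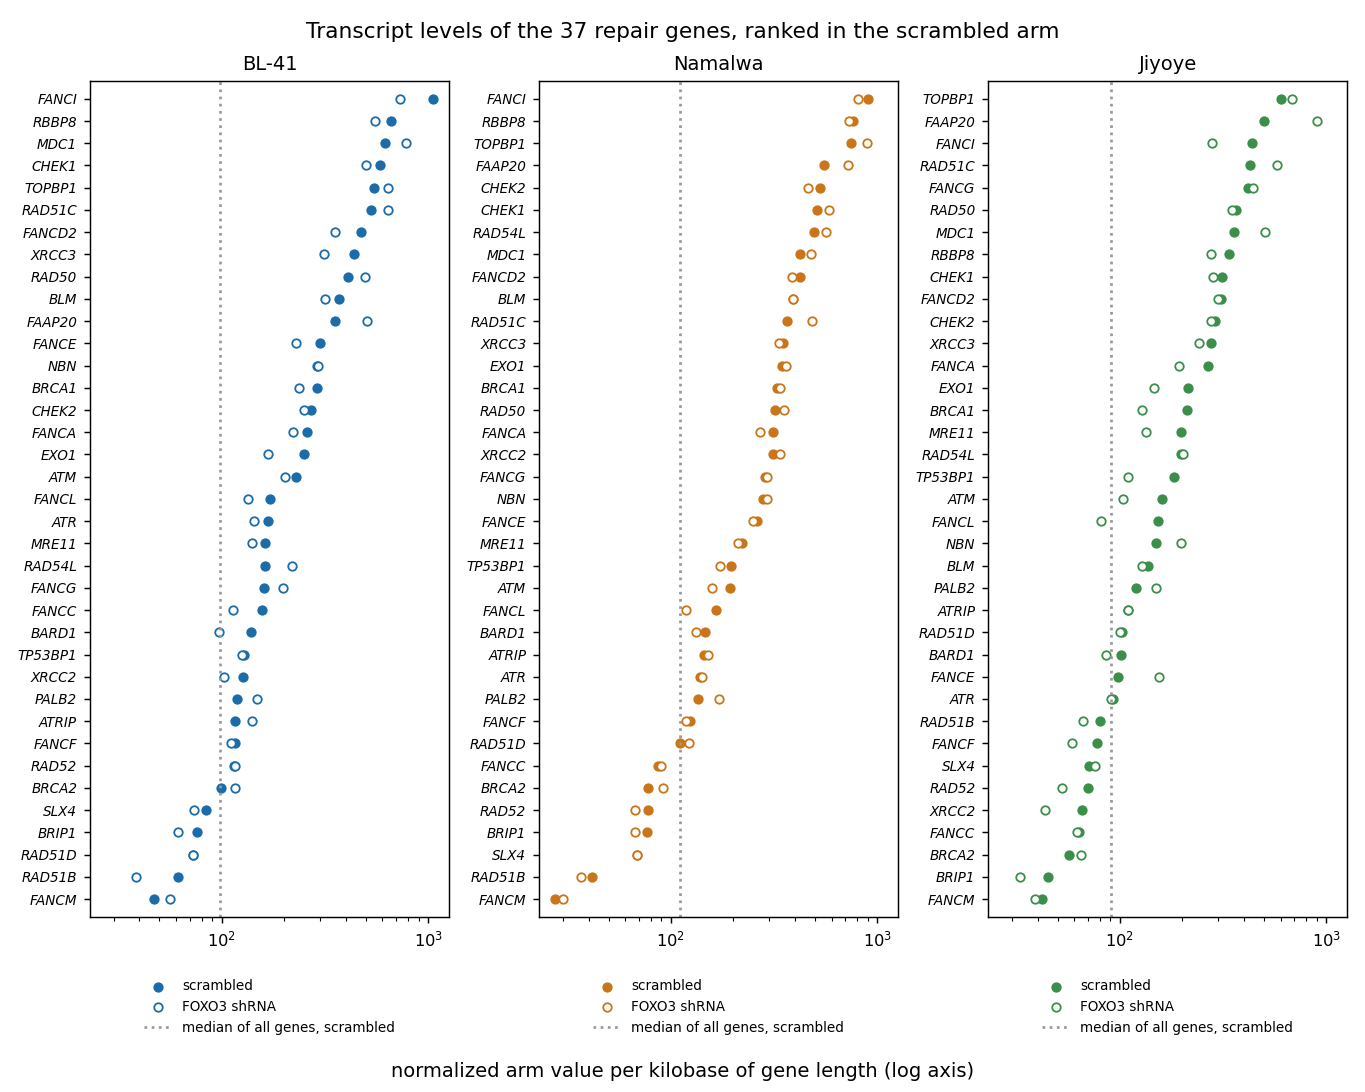
Normalized arm value per kilobase of gene length (log axis) of the 37 repair genes, ranked by the scrambled arm of each line. Filled points are scrambled shRNA, open points FOXO3 shRNA, and the dotted line is the median of all genes in the scrambled arm (98.6, 111 and 90.2 in BL-41, Namalwa and Jiyoye).

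Promoter windows of 250 bases before and 50 after the start were taken from the RefSeq table of GRCh38.p14 for 35 of the 37 genes, all but FANCI and NBN. The FOXO letters TGTTTAC were in the windows of 0 of those 35 genes. They were in 4.19% of all 27305 genes with a window and in 3.5% of the 7458 of these whose mean reached 100 in every line. The rest of the 8870 genes with that mean had no window. The E2F letters were in 3 of 35 (8.57%), FANCC, FANCD2 and XRCC2, beside 2.75% of all genes and 5.14% of those with a mean of at least 100. Without the 50 bases after the start only the FANCC match was left, 1 of 35 (2.86%), which lay below the 4.44% of genes with a mean of at least 100 and near the 2.36% of all genes. CHR letters were in ATM, BRIP1, FANCC and MDC1 (11.4%, beside 18.2% of all genes and 13.4% of the well-expressed ones), and CCAAT, a short word with frequent matches, in 16 of 35 (45.7%, beside 39.7% and 44.6%). No overlap between motifs was removed. The 30 bases around each E2F match, in FANCC, FANCD2 and XRCC2 in that order, are shown with the match in capitals. They lie at chr9:95317737-95317766 (minus strand), chr3:10026424-10026453 (plus strand) and chr7:152676102-152676131 (minus strand).
FANCC: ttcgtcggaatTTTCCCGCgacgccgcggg
FANCD2: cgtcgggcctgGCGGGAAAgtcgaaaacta
XRCC2: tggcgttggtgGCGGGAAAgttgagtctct
FANCD2 and XRCC2 carry the same 8 letters on the given strand, and FANCC carries their reverse complement. A match is a run of letters and not a shown binding site.

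Lists of related genes were counted in the same way, beside the shares of all genes called in each line given above. Of 42 other homologous recombination genes, 2 rose and 12 fell in BL-41, 2 rose and 5 fell in Namalwa, and 1 rose and 8 fell in Jiyoye by the authors' DESeq2 test, with medians of -0.17, 0.03 and -0.18. ABRAXAS1, the scaffold of the BRCA1-A complex, fell in each line, with fold changes of -1.58, -0.80 and -1.62 by the authors' deposited tables (adjusted p from 5.97e-23 to 5.68e-07, DESeq2). The helicase RECQL4 rose in each line, by 1.63, 0.56 and 0.57 in the authors' deposited tables (adjusted p from 1.26e-31 to 0.0111, DESeq2). BRCC3, the deubiquitinase of the same BRCA1-A complex, fell by 0.56 in Jiyoye (adjusted p = 0.00234, DESeq2) by the authors' deposited table.

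Of 17 other Fanconi pathway genes, 2 rose and 6 fell in BL-41, 0 rose and 1 fell in Namalwa, and 1 rose and 4 fell in Jiyoye by the authors' DESeq2 test, with medians of -0.02, -0.05 and -0.03. ERCC1, partner of the nuclease that cuts linked strands, fell by 0.92 in BL-41 and 0.79 in Jiyoye in the authors' deposited tables (adjusted p = 3.19e-09 and 7.71e-09, DESeq2). CENPS fell by 1.04 in BL-41 and 0.59 in Jiyoye, and MAD2L2 rose by 0.68 in Jiyoye, in the authors' deposited tables (adjusted p from 2.69e-05 to 0.0481, DESeq2). FAAP24 fell in each line, by 0.98, 0.76 and 0.76 in the authors' deposited tables (adjusted p from 0.000859 to 0.0261, DESeq2). Of 22 end joining genes, 4 rose and 6 fell in BL-41, 0 rose and 1 fell in Namalwa, and 1 rose and 2 fell in Jiyoye by the same test, with medians of 0.09, -0.01 and 0.00. POLL, a gap-filling polymerase, was called in each, at -0.85, -0.53 and -0.77 by the authors' deposited tables (adjusted p from 1.81e-05 to 0.0131, DESeq2), APTX fell by 0.64 in BL-41 and POLQ by 0.44 in Jiyoye.

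Of 17 checkpoint genes outside the 37, 4 rose and 1 fell in BL-41, 2 rose and 0 fell in Namalwa, and 3 rose and 1 fell in Jiyoye by the authors' DESeq2 test, with medians of 0.12, 0.10 and 0.06. H2AFX, the histone that MDC1 binds once phosphorylated, rose by 1.29, 1.12 and 1.73 in BL-41, Namalwa and Jiyoye in the authors' deposited tables (adjusted p from 3.23e-19 to 3.63e-16, DESeq2). RAD9A, a subunit of the clamp that recruits TOPBP1, rose by 1.26, 0.54 and 0.57 in the authors' deposited tables (adjusted p from 3.22e-19 to 0.0044, DESeq2).

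Genes of DNA replication and mitosis, whose messages also follow the cell cycle, are given beside these counts. Of 45 replication genes, 8 rose and 14 fell in BL-41, 3 rose and 2 fell in Namalwa, and 1 rose and 13 fell in Jiyoye by the authors' DESeq2 test, with medians of -0.23, 0.10 and -0.23. RRM2, the small subunit of ribonucleotide reductase, fell by 0.94, 0.54 and 1.59 in the authors' deposited tables (adjusted p from 9.60e-15 to 0.00601, DESeq2). POLD3, a subunit of DNA polymerase delta, fell in each line as well, by 0.48, 0.39 and 0.67 in the authors' deposited tables (adjusted p from 5.27e-05 to 0.0388, DESeq2). POLA2 fell by 1.27 in BL-41, and MCM2, a subunit of the replicative helicase, rose by 0.79 in BL-41 and 0.35 in Namalwa, in the authors' deposited tables (adjusted p from 4.09e-07 to 0.00514, DESeq2). Of 32 mitosis genes, 4 rose and 10 fell in BL-41, 0 were called in Namalwa, and 2 rose and 4 fell in Jiyoye by DESeq2, with medians of -0.20, -0.19 and -0.13. The fold change in Namalwa was negative for 28 of those 32, where it was for 50.3% of all genes. At an unadjusted p under 0.05 (DESeq2) there were 10 below 0 and 0 above, where 9.21% of all genes were below and 8.06% above. Among them KIF11 fell by 0.63 in BL-41 and 0.62 in Jiyoye, TPX2 fell by 0.50 in BL-41 and 0.34 in Jiyoye, and TTK rose by 0.41 in BL-41 and 0.60 in Jiyoye, in the authors' deposited tables (adjusted p from 4.78e-05 to 0.0383, DESeq2). The replication list had negative medians in BL-41 and Jiyoye, as the repair genes did, and a positive one in Namalwa, and its part in the repair genes' changes was not tested.

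Of the p53 target genes, 6 of 25 rose and 4 fell in BL-41, 0 of 24 rose and 1 fell in Namalwa, and 1 of 25 rose and 3 fell in Jiyoye by the authors' DESeq2 test, with medians of 0.15, -0.07 and -0.02. SESN1 rose by 0.59 and SESN2 fell by 0.52 in BL-41, and BTG2 fell by 0.63 in Namalwa, in the authors' deposited tables (adjusted p from 9.26e-06 to 0.003, DESeq2). DDB2 fell by 0.80 in BL-41 and 0.72 in Jiyoye, and PLK2, at low values of 16.8 and 44.7, rose by 1.41 in Jiyoye, in the authors' deposited tables (adjusted p from 8.82e-08 to 0.00332, DESeq2). In the lists of other genes, Namalwa's counts of 0 became, at the same unadjusted p under 0.05 by DESeq2, 3 Fanconi genes up, 2 end joining genes up, 0 checkpoint genes down and 1 p53 target up. The B cell markers summed to 111711 and 73352 in BL-41, to 92908 and 80908 in Namalwa and to 154377 and 158162 in Jiyoye, by the authors' deposited tables. CD74 was the largest part throughout, at 53303.0 and 25007.1 in BL-41, 56276.1 and 43618.5 in Namalwa and 137694.2 and 144368.6 in Jiyoye. By DESeq2, CD79B, CD22, CD74 and BLNK fell in BL-41, and CD74 and BLNK in Namalwa. In Jiyoye BLNK fell, while CD79A and CD79B rose. The part of these markers in the repair genes' changes was not tested.

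**Figure D5:**
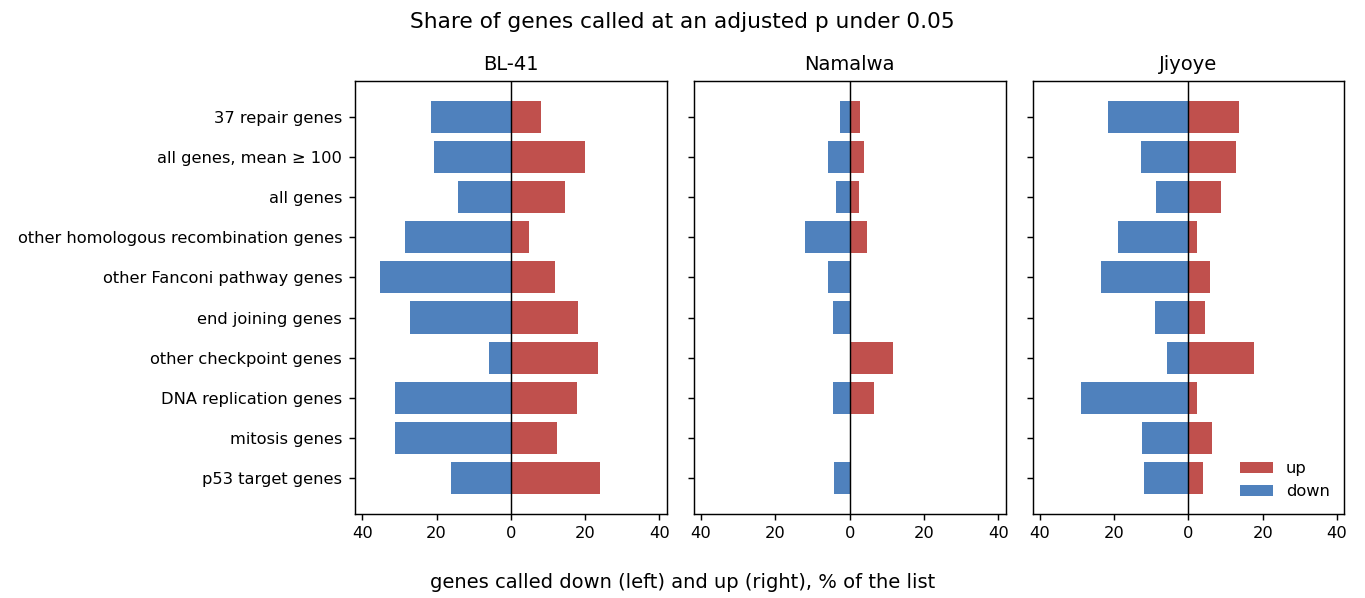
Share of genes called down (left of 0) and up (right of 0), as a percent of each list, in BL-41, Namalwa and Jiyoye, for the 37 repair genes, all genes and the other gene lists. The repair genes' bars reach 21.6% down and 8.11% up in BL-41 and 21.6% down and 13.5% up in Jiyoye. In Namalwa they reach 2.7% down and 2.7% up.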

How the data were processed

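For each line the authors deposited 1 table with a normalized signal value per arm, a log2 fold change, a p-value and an adjusted p-value for each gene. Per the series' design text, SOAPnuke filtered the reads, Bowtie2 mapped them to hg38, RSEM gave gene levels, and changed genes came from the authors' DESeq2 test. Their versions are not given in the sources used here. The deposited log2 fold change equals the log2 ratio of the arm values (largest difference 1.39e-14) and appears moderated, since genes near 0 had an SE as low as 0.12. With no value per library, no count model could be fitted here. The SE was obtained by dividing the fold change by the normal quantile that its p corresponds to. Its median for genes whose mean reached 100 was 0.144 for BL-41, 0.127 for Namalwa and 0.149 for Jiyoye. Differences and means of lines were tested by two-sided z tests and heterogeneity by chi-square with 2 degrees of freedom. Each had Benjamini-Hochberg adjustment over all genes tested. These tests took the fold changes as deposited, and whether moderation was equally strong in each line is not given in the sources used here. The erythroid gene HBB, at 0.2 in both arms, had an SE of 0.23 in BL-41 and 0.12 in Namalwa. Unlike moderation could add to or hide a difference between lines, and its part was not tested. Simulated fold changes used to try the tests were drawn with the recovered SE, and could not check that SE, the moderation or library spread. The alternatives were other thresholds, adjustments, scalings and filters, and each line left out. The 37 genes and the 7 other lists were chosen with earlier results of these data known. Named genes were all 37, FOXO3 and, from each other list, the 2 called genes with the smallest adjusted p per line; markers are named as checks. Python 3.11.15, pandas 2.3.3 and scipy 1.17.1 were used.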

Additional observations from a re-analysis of the deposited data

Results flagged for a closer look

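Between lines the fold changes of 4 repair genes differed past the z test. They were TP53BP1 (BL-41 minus Jiyoye 0.69, Namalwa minus Jiyoye 0.54), EXO1 (BL-41 minus Namalwa -0.64), BRCA1 (Namalwa minus Jiyoye 0.79) and FANCE (BL-41 minus Jiyoye -1.07, Namalwa minus Jiyoye -0.74). For FANCE the arm values moved in opposite directions in BL-41 and Jiyoye.

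The other named genes that differed between BL-41 and Namalwa were ABRAXAS1 (BL-41 minus Namalwa -0.78), APTX (-0.65), ERCC1 (-0.59), POLA2 (-1.10), RAD9A (0.72) and RECQL4 (1.08). Between BL-41 and Jiyoye they were PLK2 (BL-41 minus Jiyoye -1.53, with 0.2 in both BL-41 arms), RAD9A (0.69) and RECQL4 (1.07). Between Namalwa and Jiyoye they were ABRAXAS1 (Namalwa minus Jiyoye 0.82), BRCC3 (0.71), BTG2 (-0.65), RRM2 (1.05), TTK (-0.58) and FOXO3 itself (-0.80). Adjusted p-values of these ran from 2.27e-07 to 0.0471 (z test). PLK2 was barely detected in BL-41, so its difference reflects the Jiyoye values of 16.8 and 44.7.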

How the results depend on the processing

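No paired analysis was possible because the tables hold no value per library, and for the same reason no library could be left out and no edgeR fit was run. Counts of called repair genes kept within 1.5 times when fold changes were re-centred, arm values rescaled to equal totals, or genes limited to a mean of at least 100. Stricter rules lowered them. At an adjusted p under 0.01 the count was 5 in BL-41 (from 11), 0 in Namalwa (from 2), 0 for BL-41 minus Namalwa (from 1), 1 for BL-41 minus Jiyoye (from 2), 0 for Namalwa minus Jiyoye (from 3) and 2 for heterogeneity (from 4). With Benjamini-Yekutieli adjustment it was 4 in BL-41, 0 in Namalwa, 8 in Jiyoye (from 13), 0, 1 and 0 for those pairs and 1 for heterogeneity. Asking also for a fold change past 0.5 in either direction on the log2 scale left 5 in BL-41 and 0 in Namalwa, where 6 had an unadjusted p under 0.05 (DESeq2). Of 629 single gene values over all alternatives, 572 stayed on their side of the threshold, 49 lost and 4 gained a call, and 4 uncalled values changed sign. With equal totals NBN was -0.04 and RAD52 -0.04 in BL-41 and SLX4 -0.02 in Namalwa, and re-centred SLX4 was -0.003. The cause was not tested. The SE limits genes with low values most, the largest of a repair gene being 0.24 for RAD51D in Jiyoye.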

Other observations

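The tables give a gene length for each line, and it differed between lines for 51.4% of genes, RSEM being the tool named for gene levels. Of the repair genes, RAD51C had the widest spread, at 1310 bases for BL-41, 1237 for Namalwa and 1058 for Jiyoye, so that the longest exceeded the shortest by 23.8%. FANCC followed with 4343, 4059 and 3733 bases (16.3%) and FAAP20 with 931, 825 and 813 (14.5%). BRCA1 (6303, 6076 and 5755 bases) and ATM (13162, 12031 and 12601) also differed. In contrast PALB2 (4069) and BRCA2 (11386) had 1 length in every line. The 2 arms of a line share 1 length, so these values describe lines and not the effect of FOXO3 shRNA.

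By the annotation, 24 of the 37 repair genes overlap another coding or lncRNA gene, 16 of them a coding gene, and 6 have a pseudogene of their own name, with CHEK2 having 6 of these. Reads of such genes may have been divided between copies, and values of those genes are uncertain to that extent.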
